A study of Drosophila melanogaster with 6 samples.

Results

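In all, 10 genes of the contractile apparatus of the ovary's muscle sheath were followed through 6 fly ovary libraries: Mhc, Mlc1, Mlc2, Prm, Act57B, Act87E, Tm2, up, wupA and sls. They were chosen by symbol, with no measured value in the rule, but with earlier results of these data known. They are 10 of the 17559 genes in each deposited count table. Of the 10, 9 were matched by gene ID and wupA by its position, and 10 of 10 had enough counts to be among the 8110 genes tested. In the mutant flies the RanBP9 allele D1 stood over the chromosomal deletion BSC469. In the control flies a w1118 chromosome stood over BSC469, so both groups carried that deletion once. The genotype was that of the whole fly, muscle sheath and egg chambers alike. RanBP9 is the older name of Ipo9, the gene of Importin-9, a receptor that carries actin into the nucleus, and the series asks what less nuclear actin does to transcription. Ipo9 itself averaged 93.8 CPM in mutant and 129.8 CPM in control ovaries (CPM, the reads of a gene scaled to a common library total), with every library of the mutant group under those of the control group, and edgeR gave it an adjusted p of 0.0544. Flies were kept at 25 °C, poly(A) RNA was taken from dissected ovaries, and each group had 3 libraries with totals of 21583524 to 26483578 counted reads. Nothing in the labels ties the replicates to separate flies or dissections, so p-values measure only the spread between these libraries, which may be technical.

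The fly ovary is wrapped in muscle. A peritoneal sheath surrounds the whole ovary, and each ovariole lies in its own epithelial sheath of thin muscle cells whose contractions move egg chambers along. In such cells, thick filaments of myosin pull on thin filaments of muscle actin, and calcium sets this in motion by acting on the troponin and tropomyosin that lie along the thin filament. The germline and follicle cells, which make up most of the ovary, use cytoplasmic myosin and cytoplasmic actin instead.

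None of the 10 muscle genes passed the test between mutant and control ovaries, where 14.5% of all genes tested did (1177 of 8110, by the quasi-likelihood test of edgeR, with p-values adjusted after Benjamini and Hochberg and called under 0.05). The levels of the 10 swung together from library to library within each group, least closely in Act87E. Mutant replicates 1 and 2 and control replicates 2 and 3 were high, and mutant replicate 3 and control replicate 1 were low. In Act87E, control replicates 1 and 2 were nearly level. In bulk ovary RNA, fewer muscle cells and less muscle mRNA per cell cannot be told apart.

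The defining actin genes of flight and jump muscle were not detected. Act88F and Act79B, the actin genes of those muscles, had 0 counts in all 6 libraries, which allows up to 0.0212 CPM over the 6 at a limit of 3 counts. The whole list of 5, with fln, TpnC4 and TpnC41C, summed to 0.138 to 0.402 CPM in mutant and 0.170 to 0.376 CPM in control libraries. No marker on the lists sets the ovarian sheath apart from other visceral muscle, such as that of the oviduct or gut, so the genes are called muscle genes of the dissected ovary.

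Reads of marker genes of tissues next to the ovary appeared in some libraries. Of 4 gut digestive genes, 3 stood out in mutant replicate 2, where Jon65Aiv had 1379 reads, Jon99Cii 582 and betaTry 487. The list summed to 0, 2448 and 50 reads in mutant replicates 1, 2 and 3 and to 0, 2 and 0 in control replicates 1, 2 and 3. The fourth gene, Npc2d, differed from the 3, with 20 reads in mutant replicate 3 and 0 in every other library. Send1 and Send2, genes of the sperm storage glands, had 20 and 51 reads in mutant replicate 3 and at most 1 in any other library. Both the gut and the sperm storage organs carry muscle of their own, and their part in the muscle gene levels was not tested. The library with the sperm gland reads was the lowest mutant library for 10 of 10 muscle genes. Mutant replicate 1, which had 0 reads of the gut list and of Send1 and Send2, was the highest library for 8 of 10. Mutant replicates 3 and 1 are single libraries, so their order cannot show what such tissue adds to the muscle gene levels. Without mutant replicate 2 the log2 fold change of Act87E was 0.02, and without mutant replicate 3 it was 0.63, against 0.36 with all 6 libraries. The median log2 fold change of the 10 was 0.09 without mutant replicate 2, against 0.19 with all 6 libraries.

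**Figure D1:**
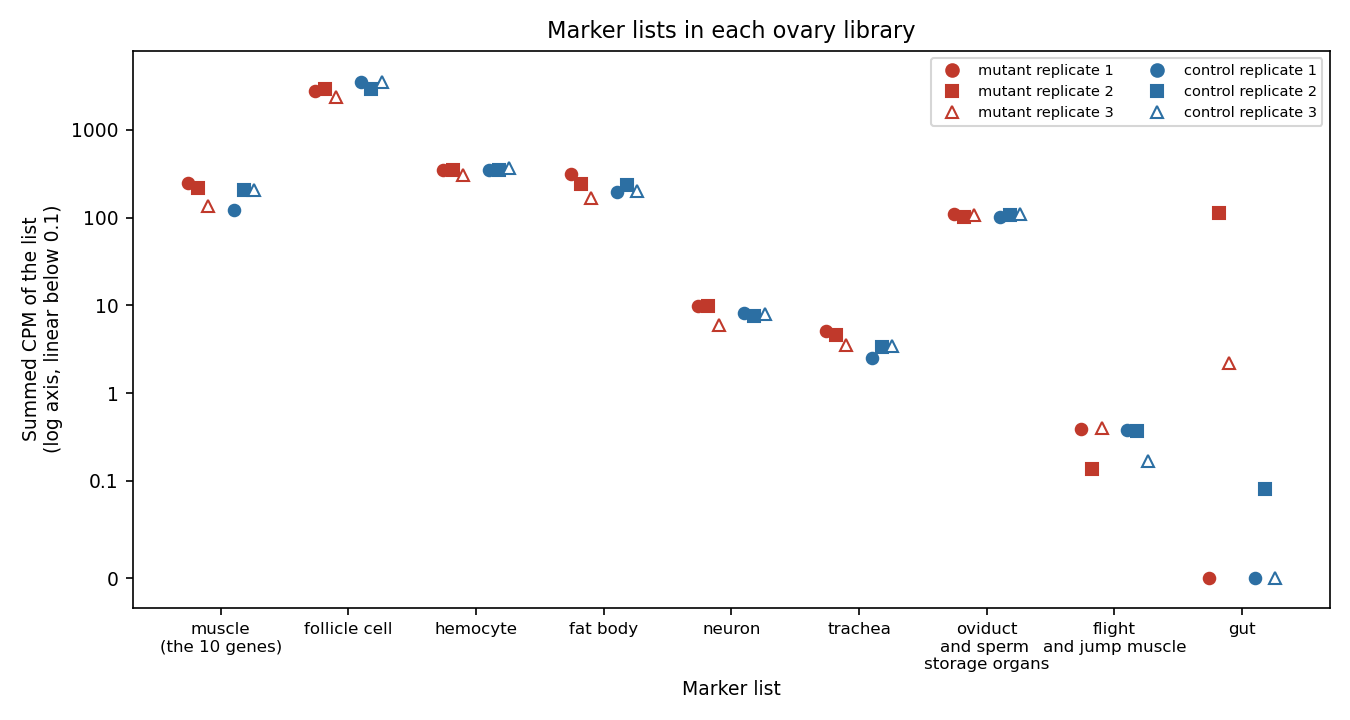
Summed CPM of 9 lists of marker genes in each library (log axis, linear below 0.1). The gut list stands up in mutant replicate 2, and the flight and jump muscle list stays at 0.402 CPM or less in every library.

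**Figure D2:**
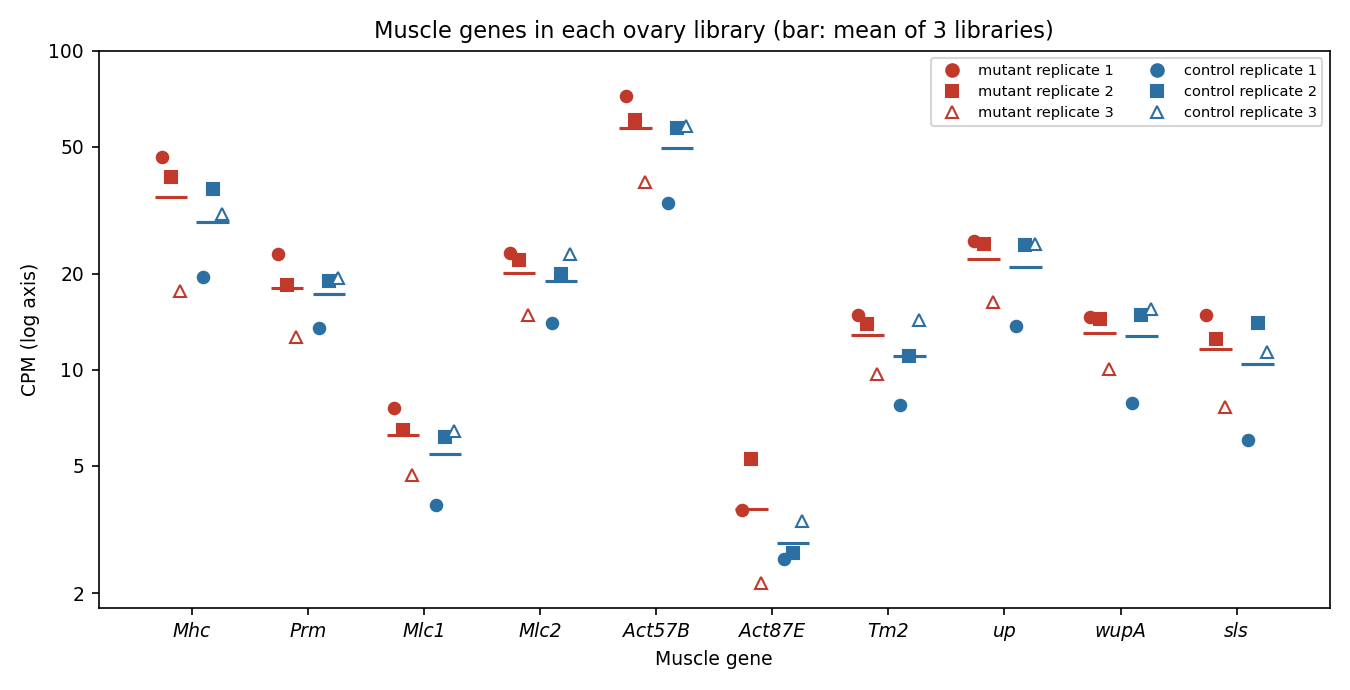
CPM (log axis) of the 10 muscle genes in the 3 mutant and 3 control ovary libraries, with a bar at each group's mean. Mutant replicate 3 and control replicate 1 are the lowest libraries for each gene, and the groups overlap in all 10.

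Of the thick filament genes, Mhc (FBgn0264695), which encodes the muscle myosin heavy chain, lies at 16766566 to 16788766 on chromosome arm 2L (plus strand, dm6). It was at 46.5, 40.2 and 17.7 CPM in mutant replicates 1, 2 and 3 and at 19.5, 37.0 and 30.9 CPM in control replicates 1, 2 and 3. Mutant replicates 1 and 2 were above every control library and mutant replicate 3 was below every one, so the mutant range enclosed the control range. Mhc averaged 34.8 ± 15.1 CPM in mutant and 29.1 ± 8.88 CPM in control ovaries (± SD over 3 libraries, n = 3 each), a log2 fold change of 0.27 (SE 0.45, edgeR adjusted p = 0.746). The 95% interval ran from −0.90 to 1.44, which holds a fall to 0.535 of the control level and a rise to 2.71 times it. Of the 10 genes, Mhc had the widest spread between libraries and the widest interval.

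The light chains behaved alike. Mlc1 (FBgn0002772, 27657078 to 27660177 on 3R, minus strand) encodes the alkali light chain of muscle myosin. Its level was 7.59, 6.49 and 4.69 CPM in the mutant libraries and 3.76, 6.16 and 6.43 CPM in the control libraries. Mlc2 (FBgn0002773, 30171438 to 30174551 on 3R, minus strand) encodes the regulatory light chain, which stretch and phosphorylation act on in flight muscle. It was at 23.3, 22.1 and 14.9 CPM in mutant and at 14.1, 19.96 and 23.1 CPM in control replicates 1 to 3. In both genes the lowest mutant library lay inside the control range. The log2 fold change was 0.21 (SE 0.24) for Mlc1 and 0.08 (SE 0.25) for Mlc2, with edgeR adjusted p of 0.627 and 0.862.

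Prm (FBgn0003149, 8732858 to 8745310 on 3L, minus strand) encodes paramyosin, a rod protein in the core of invertebrate thick filaments. Its level was 23.1, 18.4 and 12.7 CPM in the mutant libraries and 13.6, 19.0 and 19.4 CPM in the control libraries. Mutant replicate 1 was thus above and mutant replicate 3 below all of them. The log2 fold change was 0.07 (SE 0.26, edgeR adjusted p = 0.890), with a 95% interval of −0.57 to 0.71.

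The 2 muscle actin genes among the 10 stood far apart in level. Act57B (FBgn0000044, 20944021 to 20946431 on 2R, plus strand) is a muscle actin gene of larval body wall and visceral muscle. It was at 71.9, 60.6 and 38.9 CPM in mutant and at 33.4, 57.3 and 58.2 CPM in control replicates 1 to 3. Mutant replicates 1 and 2 were above every control library, and mutant replicate 3 was inside the control range. The log2 fold change was 0.21 (SE 0.33, edgeR adjusted p = 0.734). Of its 1724 exon bases, 96 overlap a snoRNA gene on the same strand. Act87E (FBgn0000046, 13425983 to 13428375 on 3R, plus strand), another actin gene of these muscles, had 48 to 114 reads per library. Per kb of exon, Act57B was 17.9 times as high as Act87E in mutant and 20.01 times in control ovaries. Its level was 3.64, 5.24 and 2.14 CPM in the mutant libraries and 2.56, 2.67 and 3.36 CPM in the control libraries. Mutant replicates 2 and 1 were above every control library and mutant replicate 3 was below each of them. The log2 fold change was 0.36 (SE 0.30, edgeR adjusted p = 0.482, the lowest of the 10 genes), with an interval of −0.32 to 1.04. Actin genes are near-identical in their coding parts, and the sources used here do not say how reads that match several of them were counted. The split of reads between Act57B, Act87E and the cytoplasmic actin genes Act5C and Act42A is therefore uncertain.

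In the thin filament's calcium switch, Tm2 (FBgn0004117, 15310193 to 15315197 on 3R, plus strand) encodes a muscle tropomyosin, the rod that covers the myosin sites on actin at rest. It was at 14.9, 13.9 and 9.73 CPM in the mutant libraries and at 7.75, 11.1 and 14.3 CPM in the control libraries. Mutant replicate 3 lay inside the control range, and control replicate 1 was the lowest of the 6. The gene up (upheld, FBgn0004169, 13593474 to 13602578 on X, minus strand) encodes troponin T, which ties the troponin complex to tropomyosin. It was at 25.4, 24.8 and 16.3 CPM in mutant and at 13.7, 24.7 and 24.7 CPM in control replicates 1 to 3. In each group, then, a lower library stood beside a close pair. The gene wupA (wings up A, FBgn0004028, 18105568 to 18116922 on X, minus strand) encodes troponin I, the inhibitory subunit. It was at 14.6, 14.5 and 10.04 CPM in the mutant libraries and at 7.90, 14.9 and 15.5 CPM in the control libraries. It was the gene of the 10 whose highest level lay in control replicate 3, and its mutant libraries all lay inside the control range. The log2 fold changes were 0.22 (SE 0.26) for Tm2, 0.08 (SE 0.31) for up and 0.04 (SE 0.30) for wupA, with edgeR adjusted p of 0.633, 0.890 and 0.943.

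The elastic filament gene sls (sallimus, FBgn0086906, 2039681 to 2115611 on 3L, minus strand) encodes a titin-like protein that links the Z disc to the thick filament. It was at 14.9, 12.5 and 7.63 CPM in the mutant libraries and at 6.02, 14.0 and 11.4 CPM in the control libraries. Control replicate 1 was the lowest library and mutant replicate 1 the highest, 2.47 times above it. The log2 fold change was 0.17 (SE 0.40, edgeR adjusted p = 0.829). An antisense RNA gene covers 1089 of its 58996 exon bases on the other strand, and no source used here gives the strand setting of the counting.

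The annotation lists 21 transcripts of Mhc, 18 of up, 13 each of wupA and sls, 6 of Tm2, 5 of Prm, 3 each of Mlc1 and Act87E, and 1 each of Mlc2 and Act57B. Insect muscles differ mainly in which of these forms they use. The counts are per gene, so a switch between forms of Mhc or of troponin would not be seen here.

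The 10 fold changes were small beside the differences between replicates. As mutant over control, the folds ran from 1.03 to 1.28, and the median log2 fold change was 0.19, against 0.00 over all genes tested. The log2 fold change was above 0 in 10 of 10 genes and in 3994 of the 8110 genes tested. These 10 directions are not separate observations, because the same libraries set them all. Without control replicate 1 the median was −0.05 and 3 of 10 genes were above 0. Without mutant replicate 1 it was −0.02 with 4 of 10 above 0, and without mutant replicate 3 it was 0.38 with 10 of 10 above 0. No gene of the 10 passed the threshold without any of the 6 libraries, and the lowest edgeR adjusted p in those fits was 0.0844, for Act87E without mutant replicate 3. The groups did not overlap in 0 of the 10 genes, against 34.9% of all genes tested. No gene of the 10 had an unadjusted p under 0.05 in edgeR, DESeq2 or limma-voom, where 29.1% of all genes tested had one in edgeR.

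**Figure D3:**
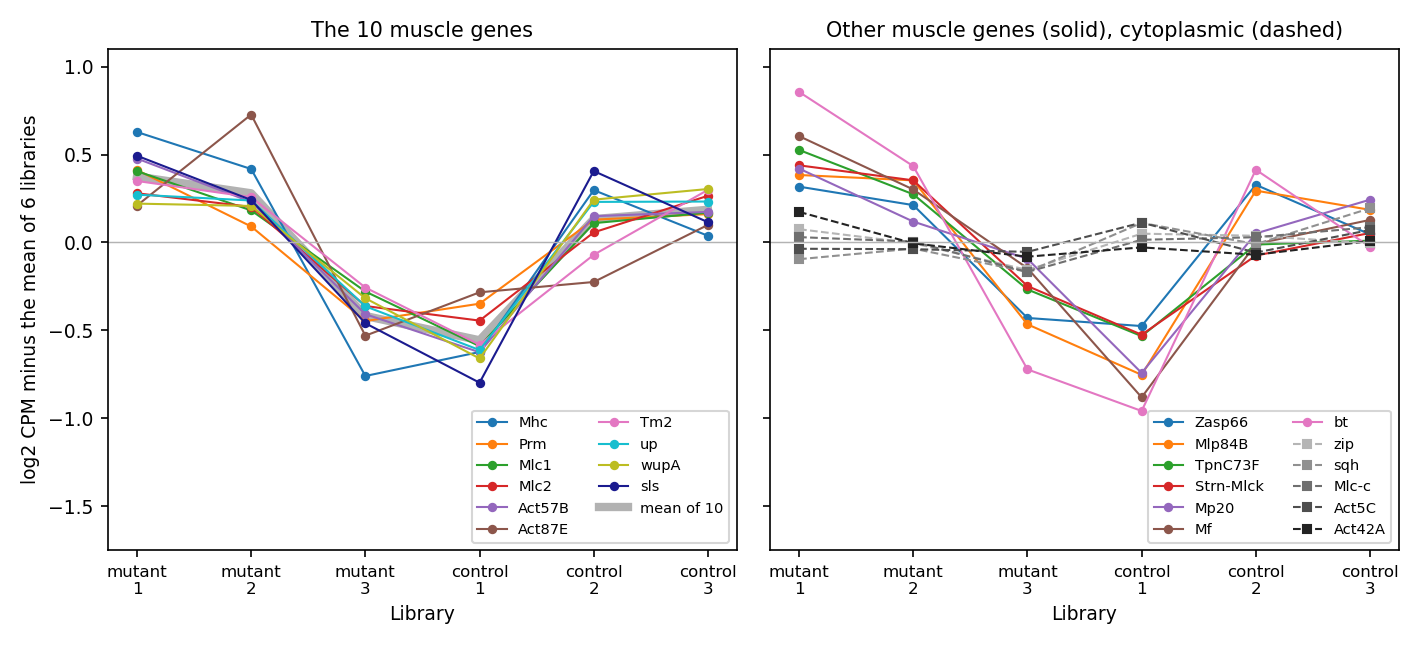
Log2 CPM minus the gene's own mean over the 6 libraries, for the 10 muscle genes (left, with their mean as a broad line) and for other muscle genes and cytoplasmic myosin and actin genes (right). The muscle genes shown dip together in mutant replicate 3 and control replicate 1, and the cytoplasmic genes stay near 0. Those on the right (Zasp66, Mlp84B, TpnC73F, Strn-Mlck, Mp20, Mf and bt) were picked from genes with these lowest 2 libraries. Of the 41 tested genes of the wider muscle list, 17 had them. Lines only join points of 1 gene.

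The shared swing was far larger than the difference between the genotypes. The summed level of the 10 genes was 246, 219 and 135 CPM in mutant replicates 1, 2 and 3, against 122, 207 and 207 CPM in control replicates 1, 2 and 3. That is 0.0245%, 0.0217% and 0.0136% of the counted reads of the mutant libraries and 0.0123%, 0.0208% and 0.0204% of those of the control libraries. Within the mutant group, replicate 1 was above replicate 3 in 10 of 10 genes, by 1.46 to 2.63 times. Replicate 2 was above replicate 3 in 10 of 10 as well, by 1.38 to 2.45 times. Within the control group, replicate 1 was below replicate 2 in 10 of 10 genes, at a median of 0.597 of its level (0.430 to 0.959). Control replicate 1 was also below replicate 3 in 10 of 10 genes, at a median of 0.580 (0.510 to 0.760). The gene at 0.959 was Act87E, with 68 reads in control replicate 1 and 58 in control replicate 2. Mutant replicate 3 and control replicate 1 were the lowest 2 libraries in 10 of 10 muscle genes and in 5.24% of all genes tested (425 of 8110). This pair was named from the levels of the 10 genes themselves, so the 10 of 10 describes them and tests nothing. Control replicate 1 had the most counted reads of the 6 libraries and mutant replicate 1 the next most.

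Between these low libraries the muscle genes were close. Mutant replicate 3 was above control replicate 1 in 7 of 10 genes, at a median of 1.18 times its level. Mutant replicate 2 and control replicate 3 also lay close, at a median ratio of 1.01, with 6 genes higher and 4 lower in the mutant library.

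The spread of the muscle genes within a group stood high among genes of like level. The SD of log2 CPM within groups, pooled over both, was 0.36 to 0.63 for the 10 genes, with a median of 0.43, against a median of 0.08 over all genes tested. Among the other 3125 tested genes whose mean level lay between 3.27 and 53.4 CPM, the range of the 10, the median was 0.09 and the 95th percentile 0.34. All 10 muscle genes lay above that percentile. Counting error alone would give a coefficient of variation of 3.39% for Act57B and 14.4% for Act87E in the library where each had the fewest reads, with the other 8 in between. The biological coefficient of variation that edgeR fitted was 21.0% (Mlc2) to 37.6% (Mhc), against a median of 5.62% over all genes tested.

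Once the swing they share was set aside, most of the 10 genes varied little, and Act87E and Mhc varied most. Over the 6 libraries the SD of log2 CPM had a median of 0.39 across the 10 genes. After the mean profile of the 10 was subtracted, which includes each gene itself, the median SD was 0.13, from 0.06 for Act57B to 0.30 for Act87E. Act57B made up 28.6 ± 0.81% of the summed level of the 10 in mutant and 27.7 ± 0.37% in control ovaries (± SD over 3 libraries, n = 3 each). The share of Mhc was 16.8 ± 3.19% in mutant and 16.2 ± 1.53% in control ovaries, and that of up was 11.3 ± 0.89% in mutant and 11.7 ± 0.41% in control ovaries. The shares of Mlc2 were 10.21 ± 0.80% in mutant and 10.8 ± 0.97% in control ovaries, and those of Mlc1 were 3.18 ± 0.27% in mutant and 3.05 ± 0.06% in control ovaries. The share of Act87E was 1.48%, 2.40% and 1.59% in mutant and 2.09%, 1.29% and 1.62% in control replicates 1 to 3, highest in mutant replicate 2 and lowest in control replicate 2. Prm's share was 9.07 ± 0.56% in mutant and 9.87 ± 1.07% in control ovaries. The group means differed by less than the larger SD in Mhc, up, Mlc2, Mlc1 and Prm, and by slightly more than it in Act57B.

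The genes did not all swing by the same amount. A gene that followed the mean profile exactly would have a slope of 1 on it. The slope was 1.41 for Mhc and 1.28 for sls, and 0.80 for Prm and 0.82 for Mlc2. The share of Mhc was accordingly 13.2% in mutant replicate 3, where the muscle genes were low, and 18.9% in mutant replicate 1, where they were high. In the control group it was 15.9%, 17.9% and 14.9% in replicates 1, 2 and 3, so control replicate 1 did not repeat the low share of mutant replicate 3. The share of sls was lowest in control replicate 1, at 4.92%, and highest in control replicate 2, at 6.77%.

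Per kilobase of exon, Act57B stood above the other genes and sls below them in every library. Act57B was at 33.1 ± 9.74 CPM per kb in mutant and 28.8 ± 8.15 CPM per kb in control ovaries (± SD over 3 libraries, n = 3 each). Mlc2 followed at 8.79 ± 1.98 CPM per kb in mutant and 8.33 ± 2.00 in control ovaries, and up at 8.77 ± 2.01 in mutant and 8.32 ± 2.51 in control ovaries. The next levels were those of wupA (6.60 ± 1.32 in mutant, 6.45 ± 2.13 in control), Tm2 (4.91 ± 1.05 in mutant, 4.23 ± 1.26 in control) and Mlc1 (4.42 ± 1.04 in mutant, 3.86 ± 1.04 in control). Mhc (3.84 ± 1.67 in mutant, 3.21 ± 0.98 in control) and Prm (3.37 ± 0.97 in mutant, 3.23 ± 0.60 in control) came next. Act87E was at 1.85 ± 0.78 CPM per kb in mutant and 1.44 ± 0.22 in control ovaries. The long gene sls was at 0.20 ± 0.06 CPM per kb in mutant and 0.18 ± 0.07 in control ovaries. From Mlc2 down to Act87E, each gene's range over the libraries overlapped that of the next, but the genes swing together, so neighbours were also compared within each library. There up was above wupA, wupA above Tm2, Mlc1 above Mhc, and Prm above Act87E in 6 of 6 libraries. Tm2 was above Mlc1 in 5 of 6, Mlc2 above up in 4 of 6 and Mhc above Prm in 3 of 6. The exon length counts every annotated exon, so genes with many alternative exons, sls and Mhc above all, come out low on this scale.

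**Figure D4:**
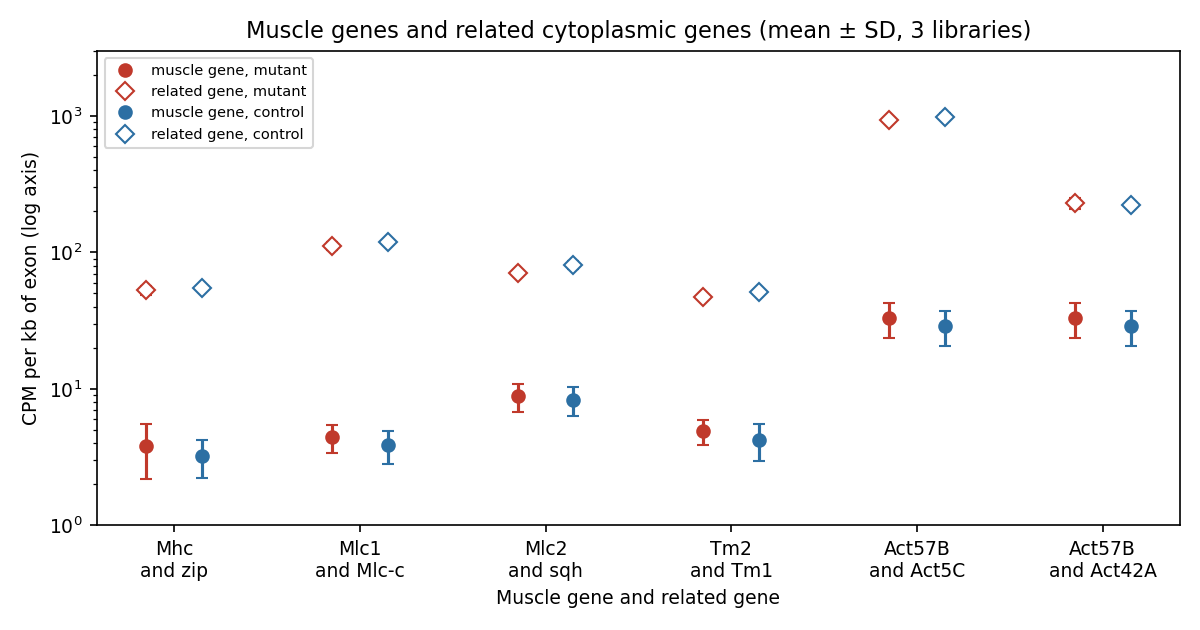
CPM per kb of exon (log axis, mean ± SD over 3 libraries) of 5 muscle genes (filled circles) and of related genes used outside muscle (open diamonds), in mutant and control ovaries. Act57B is shown beside both cytoplasmic actin genes.

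The cytoplasmic relatives of these proteins were many times more abundant. Per kb of exon, zip, the heavy chain gene of cytoplasmic myosin, was 13.8 times as high as Mhc in mutant and 17.1 times in control ovaries. Mlc-c, the cytoplasmic essential light chain gene, was 25.3 times as high as Mlc1 in mutant and 30.8 times in control ovaries. For sqh, the regulatory light chain gene of cytoplasmic myosin, the ratio to Mlc2 was 8.03 in mutant and 9.74 in control ovaries. Act5C, the main cytoplasmic actin gene, was 28.0 times as high as Act57B in mutant and 34.2 times in control ovaries. Act42A, the other cytoplasmic actin gene, was 6.96 times as high as Act57B in mutant and 7.67 times in control ovaries. These actin ratios depend on how reads that match several actin genes were counted, which is not known. Tm1, which gives both muscle and cytoplasmic tropomyosins, was 9.52 times as high as Tm2 in mutant and 12.0 times in control ovaries.

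Of the 5 cytoplasmic genes zip, sqh, Mlc-c, Act5C and Act42A, 0 were higher, 1 was lower and 4 did not pass the threshold. Over all genes tested, 8.31% were higher and 6.20% lower. The lower one of the 5 was sqh, at 112, 116 and 106 CPM in mutant and 129, 119 and 137 CPM in control replicates 1 to 3. No mutant library reached the lowest control library. On the log2 scale sqh fell by 0.20 (SE 0.06, edgeR adjusted p = 0.0437). The call ended without any of the libraries but control replicate 2, at adjusted p of 0.0506 without mutant replicate 2 up to 0.132 without control replicate 1, and limma-voom gave an adjusted p of 0.0579. None of the 5 had mutant replicate 3 and control replicate 1 as its lowest libraries.

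**Figure D5:**
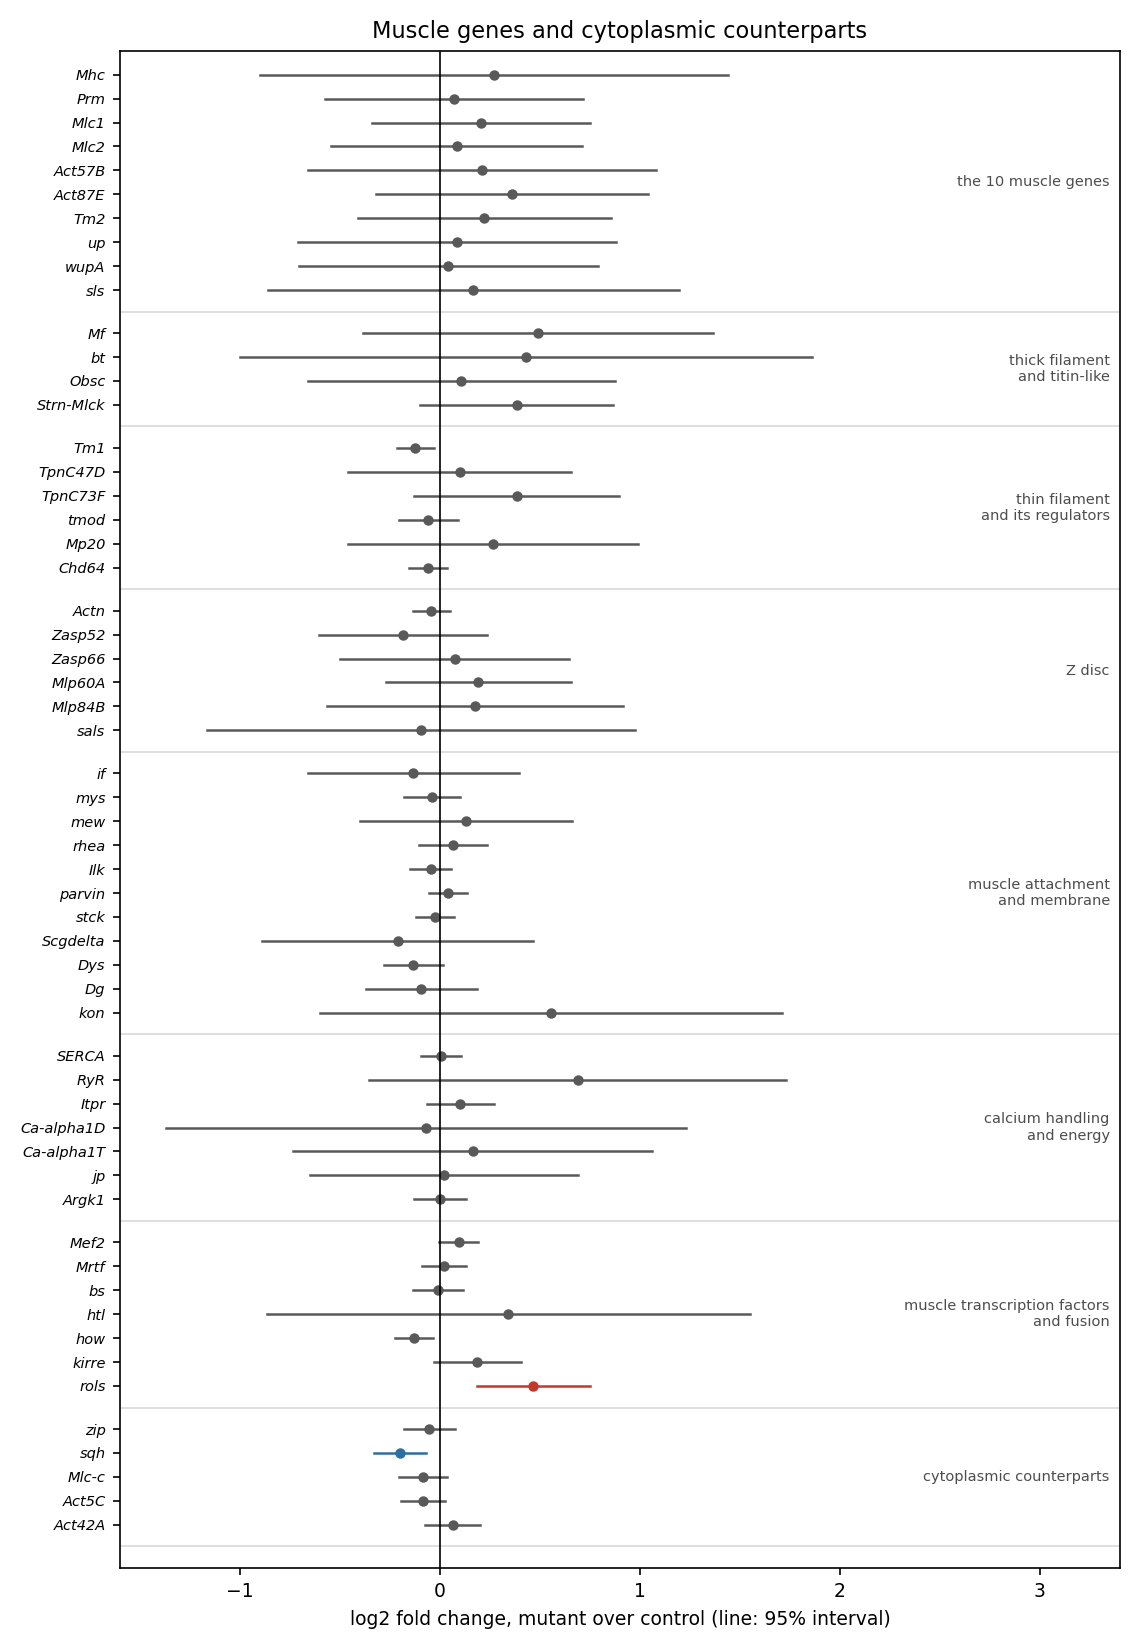
Log2 fold change, mutant over control, with its 95% interval (line) for the 10 muscle genes, the 41 tested genes of the wider muscle list by role and 5 cytoplasmic genes. The red point (rols) passed the threshold upward and the blue point (sqh) downward, and the intervals of the 10 muscle genes all include 0.

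A wider list of 57 muscle genes, sorted by role, was read from the same fit. Of these, 41 had enough counts to test. Between mutant and control ovaries 1 was higher, 0 were lower and 40 did not pass, with a median log2 fold change of 0.04, where 8.31% of all genes tested were higher and 6.20% lower. The gene that rose was rols (rolling pebbles), an adaptor gene of myoblast fusion. It was at 10.9, 12.0 and 9.42 CPM in mutant and at 8.65, 7.498 and 7.20 CPM in control replicates 1 to 3, with no overlap. Its log2 fold change was 0.47 (SE 0.13, edgeR adjusted p = 0.0352), and control replicate 1, low in the 10 genes, was its highest control library. The call ended without any of the libraries but mutant replicate 3, at adjusted p of 0.0563 without control replicate 1 up to 0.133 without mutant replicate 2. Without mutant replicate 3, the low mutant library, 4 of the 41 genes passed, all higher (9.76%), where 10.5% of all genes tested in that fit were higher (861 of 8236). These were rols, the troponin C gene TpnC73F (0.58, edgeR adjusted p = 0.0472), the myosin kinase and titin-like gene Strn-Mlck (0.57, 0.0418) and the integrin gene mew (0.33, 0.0174).

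Other thick filament and titin-like genes swung with the 10. All 4 that could be tested (Mf, bt, Obsc and Strn-Mlck) had mutant replicate 3 and control replicate 1 as their lowest libraries. bt, the gene of the titin-like protein projectin, was at 26.0, 19.4 and 8.66 CPM in mutant and at 7.34, 19.1 and 14.1 CPM in control replicates 1 to 3. Mf, the gene of the thick filament protein myofilin, was at 25.5, 20.6 and 15.1 CPM in mutant and at 9.03, 16.6 and 18.3 CPM in control replicates 1 to 3. Neither gene passed, at log2 fold changes of 0.43 (SE 0.55) and 0.49 (SE 0.34).

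Thin filament and Z disc genes were split. Of 6 tested thin filament genes, TpnC73F and the calponin-like gene Mp20 had the same lowest libraries, and of 6 tested Z disc genes the PDZ-LIM gene Zasp66, the LIM protein gene Mlp84B and the thin filament length gene sals did. Tm1, Chd64, Actn and tmod, which also act in non-muscle cells, did not, and neither did TpnC47D, Zasp52 and Mlp60A. Actn, the α-actinin gene, was at 188, 181 and 191 CPM in mutant and at 199, 186 and 192 CPM in control replicates 1 to 3. Tm1 had a log2 fold change of −0.12 (SE 0.04, edgeR adjusted p = 0.0760), not past the threshold. Actn, mew and parvin overlap another gene's exons on the same strand, which makes these values uncertain.

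Among 11 tested genes of muscle attachment and membrane, the integrin gene if (inflated) and kon, a gene of muscle attachment to tendons, had these lowest libraries. Ilk, parvin, stck, rhea and mys, which serve adhesion in many tissues, did not, and neither did mew and Scgdelta. Of 7 tested genes of calcium handling and energy, 5 had these lowest libraries (Ca-alpha1T, Itpr, RyR, SERCA and jp), and Ca-alpha1D and Argk1 did not. RyR, the gene of the calcium release channel of the sarcoplasmic reticulum, was at 3.95, 2.16 and 1.16 CPM in mutant and at 0.94, 1.70 and 1.92 CPM in control replicates 1 to 3 (log2 fold change 0.69, SE 0.45, edgeR adjusted p = 0.364). SERCA, the calcium pump gene, was at 637, 637 and 585 CPM in mutant and at 605, 627 and 621 CPM in control replicates 1 to 3, a much smaller swing.

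Of 14 genes for muscle transcription factors and fusion, 7 could be tested, and the FGF receptor gene htl was the 1 with the low libraries of the 10 genes. Mef2, the gene of the factor that turns on most muscle genes, did not dip in these libraries. It was at 57.9, 57.9 and 60.4 CPM in mutant and at 54.9, 54.9 and 55.3 CPM in control replicates 1 to 3, with no overlap between the groups. Its log2 fold change was 0.09 (SE 0.04, edgeR adjusted p = 0.188), not past the threshold. Mrtf encodes a coactivator that senses free actin, and bs its partner, serum response factor. In mammals the pair drives muscle actin genes. Their log2 fold changes were 0.02 (SE 0.05) for Mrtf and −0.01 (SE 0.06) for bs, and neither passed (edgeR adjusted p = 0.826 and 0.916). The visceral and cardiac muscle factor genes Hand, bap, bin and tin had at most 3 counts in any library.

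Beyond the 10, the tested genes whose 6 levels ran closest to the mean profile of the 10 were sought among the 2033 that varied with an SD of at least 0.2 on the log2 scale. The measure was the root mean square difference from that profile, over the 6 libraries. The 10 nearest were Lfg, Pdfr, Zasp66, Mlp84B, CG3009, wgn, CG6959, Fum2, TpnC73F and CG5023, at differences of 0.08 to 0.13, against a median of 0.44 among the 2033. Of these 10, Zasp66, Mlp84B and TpnC73F are on the wider muscle list, and Strn-Mlck came next. Pdfr encodes the receptor of the neuropeptide PDF, and wgn a receptor for tumour necrosis factor. Lfg and Fum2 had at most 17 reads in a library, so that their place rests on few counts, and Fum2 overlaps Fum1 on the same strand. Genes measured in the same 6 libraries share their depth and makeup, and nearness here says nothing beyond the 6 levels.

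Other cell types were compared library by library. The median of 8 tested follicle cell markers, relative to the control mean, was 0.35, 0.18 and −0.52 on the log2 scale in mutant replicates 1, 2 and 3, against 0.00, 0.01 and 0.07 in control replicates 1, 2 and 3. On the same scale the median of the 10 muscle genes was 0.45, 0.31 and −0.32 in mutant and −0.51, 0.23 and 0.27 in control replicates 1 to 3. The follicle median thus ran with the muscle genes over the mutant libraries and stayed near 0 in control replicate 1, but the markers differed. Of the 8, ct, mirr and tj had mutant replicate 3 and control replicate 1 as their lowest 2 libraries, as the muscle genes did. ct was at 16.3, 13.7 and 9.24 CPM in mutant and at 9.63, 11.5 and 13.5 CPM in control replicates 1 to 3. Their summed level, led by Vm26Aa, was 2381 to 2911 CPM in mutant and 2931 to 3561 CPM in control libraries. None of the 8 passed the threshold.

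Hemocyte markers gave 3 of 8 tested genes, with 0 called. The list summed to 310 to 354 CPM in mutant and 348 to 366 CPM in control libraries, nearly all of it from crq and srp, which other ovarian cells also express, while Hml, He, NimC1 and eater had at most 11 reads in a library. The third tested one, Pxn, was at 5.87, 5.06 and 2.50 CPM in mutant and at 1.84, 3.17 and 3.07 CPM in control replicates 1 to 3, with mutant replicate 3 and control replicate 1 lowest as in the muscle genes. Neuronal markers summed to 6.03 to 9.93 CPM in mutant and 7.64 to 8.24 CPM in control libraries, with 0 of 2 tested genes called and Syt1 and VGlut at 0 in every library. Tracheal markers summed to 3.53 to 5.08 CPM in mutant and 2.52 to 3.41 CPM in control libraries. Of 4 tested genes 1 was higher, where 8.31% of all genes tested were. It was serp, at a log2 fold change of 1.03 (SE 0.26, edgeR adjusted p = 0.0278). The fat body list, led by the collagen gene Col4a1, summed to 169 to 311 CPM in mutant and 196 to 236 CPM in control libraries, with 0 of 2 called. Col4a1 was at 290, 234 and 155 CPM in mutant and at 168, 195 and 180 CPM in control replicates 1 to 3, also with mutant replicate 3 and control replicate 1 lowest. The other tested fat body marker, apolpp, did not share this order. It was at 21.1, 11.4 and 13.6 CPM in mutant and at 27.4, 40.3 and 20.2 CPM in control replicates 1 to 3. Its log2 fold change was −0.92 (SE 0.37, edgeR adjusted p = 0.185). Germline markers, led by osk, summed to 3070 to 3287 CPM in mutant and 2989 to 3243 CPM in control libraries. Of the 7 tested, 2 were higher and 2 lower, against 8.31% and 6.20% of all genes tested. The higher ones were aub and grk (log2 fold changes 0.21 and 0.27) and the lower ones vas and bam (−0.16 and −0.27). Markers of the oviduct and sperm storage organs summed to 103 to 109 CPM in mutant and 102 to 109 CPM in control libraries, most of it Hr39, with 0 of 3 called. Besides Pxn, Col4a1, ct, mirr and tj, the markers with these lowest 2 libraries were piwi of the germline list and Oamb of the oviduct list. The part of these cell types in the muscle gene levels was not tested. Among these markers, srp, Pxn, osk, Hr39, elav, trh and Octbeta2R overlap a non-coding RNA gene on the same strand. On its own strand vas, called lower, shares 563 of its 2285 exon bases with solo, and btl and Fbp2 also overlap another gene. These overlaps make the values of the genes named uncertain.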

How the data were processed

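The authors deposited 6 tables of unnormalized read counts, 1 per library, each with the same 17559 genes. The submitters' processing notes name the tools TopHat2, HTSeq and DESeq2 and the builds dm6 and BDGP6. The sources used here give no version or role of these tools, no annotation release and no strand setting. RNA was extracted with TRIzol and made into directional NEBNext Ultra II libraries, per the labels' protocols.

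Symbols, exon lengths and overlaps came from the Ensembl release 115 annotation of BDGP6, matched on the gene ID for 17253 genes. A further 216 were matched on position where each gene covered at least 90% of the other. Starts are printed counting from 1. Genes were kept by filterByExpr (minimum count 10), scaled with TMM factors (0.986 to 1.01) and fitted with edgeR 4.0.16 in R 4.3.3 by the quasi-likelihood method with robust dispersion, mutant against control, with no covariates. The p-values are two-sided and adjusted over the 8110 genes tested by the Benjamini-Hochberg method at 0.05. Log2 CPM uses a prior count of 2. Limits for 0 counts (3 counts) cover counting error only. The fit was tested on simulated counts.

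The members and lists were chosen with earlier results of these data known. The rule named the 10 members, called genes of the wider list (otherwise the most abundant per length and those with the smallest p in each role), 5 cytoplasmic genes, the 10 nearest genes, and the most abundant and absent markers. Other genes named (Mp20, Zasp66, Mlp84B, sals, Mef2, Mrtf, bs and htl, and the single adhesion, gut and gland genes among them) were chosen after their values were seen. Tried in place of these settings were DESeq2 1.42.0, limma-voom (limma 3.58.1), relative log expression factors, libraries scaled by their totals alone, no filter, a filter of 1 CPM in 3 libraries, a replicate block and each library left out.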

Additional observations from a re-analysis of the deposited data

How the results depend on the processing

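The count of 0 called among the 10 muscle genes was the same in all 13 alternative fits, and the log2 fold changes of the 10 kept their sign in the 7 that used all 6 libraries (0.03 to 0.36). Without each library in turn they ranged from −0.0029 to 0.59 for Mhc, −0.0088 to 0.38 for Mlc1, −0.10 to 0.26 for Mlc2, −0.15 to 0.27 for Prm, −0.014 to 0.43 for Act57B, −0.15 to 0.27 for up, −0.22 to 0.21 for wupA and −0.12 to 0.43 for sls, each turning below 0 without at least 1 library, and from 0.01 to 0.45 for Tm2 and 0.02 to 0.63 for Act87E. Their median ranged from −0.05 to 0.38. Over all genes, 1177 calls became 728 with the replicate block, and 566 (without control replicate 1) to 1475 without each library, with 739, 775 and 778 without mutant replicate 2, control replicate 3 and mutant replicate 1. In the wider list, 1 call became 2 with DESeq2, which added Tm1, and 0 with the replicate block (rols, adjusted p = 0.0626 in edgeR), and was 0 to 4 without each library. The call of sqh also ended with the replicate block (adjusted p = 0.106 in edgeR). Deviations from the group means correlated at −0.23, −0.26 and −0.12 between same-numbered libraries 1, 2 and 3. Between libraries of unlike number the correlations ran from −0.09 to 0.29. With 3 libraries per group, these values cannot tell whether the number marks a shared batch, and the labels do not say. Fold intervals were as wide as 0.535 to 2.71 (Mhc), and counting error, at most 14.4% (Act87E), was below the fitted biological variation of each of the 10 genes.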
